A study of Mus musculus with 8 samples.

Results

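The interferon regulatory factors (IRFs) are a family of transcription factors that share a DNA-binding domain and recognise short elements built around the bases GAAA. Here 8 members of the family, Irf1, Irf2, Irf3, Irf4, Irf5, Irf7, Irf8 and Irf9, out of 31053 genes in the count table, were described in brown adipose tissue (BAT), the fat depot that produces heat. They were selected on measured values of the same contrast, namely the lower Irf4 of db/db BAT set against the rest of the family, so their genotype differences are a description and carry no test.

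The study asked how obesity and type 2 diabetes remodel BAT, and this series holds bulk RNA-seq of 4 wild-type (WT) and 4 db/db libraries. Per the labels all mice were 8 weeks old and of the C57BL6/J strain. Per the study's methods they were male and fasted before collection. The db/db mice carry a mutated leptin receptor gene, Lepr, in every cell and become obese and hyperglycaemic. The study's text and its list of materials name different suppliers for the WT mice, so whether both genotypes came from 1 supplier is uncertain. Its methods name the db/db mice as B6.BKS(D)-Leprdb/J, a strain name that the labels do not give, and its list of materials gives only a stock number. Whether both genotypes shared the same genetic background is therefore uncertain, and a difference in background could not be told apart from genotype. The labels give both BAT as tissue and stromal vascular fraction as cell type, whereas transcripts of mature adipocytes were plentiful (Fabp4, a fatty acid carrier, averaged 9990.7 CPM, counts scaled to a common library total, and Ucp1, the uncoupling protein of brown fat, 1838.1 CPM over the 8 libraries), so the libraries are called BAT below.

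In background, the family falls into several roles. Irf3, Irf5 and Irf7 are latent factors that sensors of foreign nucleic acid or lipopolysaccharide activate through kinases, and they induce type I interferon and cytokine genes. Irf9 is a subunit of the complex ISGF3, which drives the response to that interferon, while Irf1 is induced by interferon gamma and Irf2 competes with it for the same elements. Irf8 and Irf4 bind DNA poorly alone and act with partners such as Spi1 (PU.1) and Batf. Irf8 is needed for monocytes, macrophages and dendritic cells. Irf4 acts in lymphocytes and, in adipocytes, is known as a fasting-induced regulator of lipolysis genes and as a partner of PGC-1alpha in thermogenesis.

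The promoters of 4 members are shown because they carry the elements through which interferon, and IRFs themselves, are known to act on family members, or, for Irf4, show the region before the gene with the largest difference among the fitted members. Each run gives the 250 bases before the RefSeq start on GRCm38.p6, plus strand, 5′ to 3′, with motif matches in capitals. For Irf4 (chr13:30748983-30749232) the capitals mark a TATA box. For Irf8 (chr8:120736108-120736357) they mark a pair of gamma-activated sites (GAS, an element known from interferon gamma responses) and a TATA box. For Irf1 (chr11:53769764-53770013) they mark a GAS. For Irf2 (chr8:46739495-46739744) they mark an ETS-IRF composite core that overlaps an interferon-stimulated response element core, followed by a GAS.
Irf4: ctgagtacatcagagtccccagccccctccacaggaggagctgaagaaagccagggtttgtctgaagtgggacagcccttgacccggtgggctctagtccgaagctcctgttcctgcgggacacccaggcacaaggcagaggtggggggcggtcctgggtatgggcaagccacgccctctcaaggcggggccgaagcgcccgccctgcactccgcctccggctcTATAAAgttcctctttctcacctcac
Irf8: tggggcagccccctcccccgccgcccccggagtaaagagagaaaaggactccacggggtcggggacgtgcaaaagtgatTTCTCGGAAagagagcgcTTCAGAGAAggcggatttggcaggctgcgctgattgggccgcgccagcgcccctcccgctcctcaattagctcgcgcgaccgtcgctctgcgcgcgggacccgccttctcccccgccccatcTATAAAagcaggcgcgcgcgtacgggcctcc
Irf1: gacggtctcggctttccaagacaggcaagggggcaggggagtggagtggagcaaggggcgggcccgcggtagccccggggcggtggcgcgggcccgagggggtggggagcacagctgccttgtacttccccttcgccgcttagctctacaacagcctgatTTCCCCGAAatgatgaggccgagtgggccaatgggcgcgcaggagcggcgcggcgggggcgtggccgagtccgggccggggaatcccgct
Irf2: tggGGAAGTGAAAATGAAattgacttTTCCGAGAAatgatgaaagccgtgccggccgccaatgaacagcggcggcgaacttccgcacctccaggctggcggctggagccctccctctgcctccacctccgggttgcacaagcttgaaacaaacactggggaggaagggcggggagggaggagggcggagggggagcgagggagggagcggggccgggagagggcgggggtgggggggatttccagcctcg

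The letters searched on both strands were GAAANNGAA for the interferon-stimulated response element core, TTCNNNGAA for the GAS, GGAANNGAA for the ETS-IRF composite core and TATAAA for the TATA box. All 8 members matched the promoter table, with 11 start sites between them. A GAS lay in 3 of the 11 windows, at −90 in Irf1, at −224 in Irf2, and at −171 and −153 in Irf8, against 7.02% of 32851 mouse promoters. The response element core and the composite core each lay in 1 window, that of Irf2, at −241 and −247, against 7.13% and 6.99% of promoters. A TATA box lay in 3 windows, at −26 in Irf4, −29 in Irf7 and −31 in Irf8, against 12.4% of promoters. Positions are those of the first base of the match counted back from the start. A match is a description of the letters and not a site of binding.

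Library totals were 2374079 to 2615009 counts for WT libraries and 2382722 to 3240074 counts for db/db libraries, and 3 counts, taken as the detection floor, equalled 0.902 to 1.33 CPM. The members held between 0 and 144 counts in a library, which limits the precision of each value. Lepr, the mutated gene, had 0 counts in all 8 libraries and could not check the genotype labels. Skeletal muscle transcripts stood apart in db/db 1, whose summed level over 8 muscle markers was 9175.4 CPM against 1847.7 to 4107.3 CPM in the other db/db libraries and 370.3 to 1248.8 CPM in WT. In bulk tissue, fewer cells of a type and less RNA per cell cannot be told apart. CPM is not divided by transcript length, so levels are compared below within a gene or a fixed list and not ranked between genes.

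Irf4 (chr13:30749226-30766976, mm10, plus strand) had the largest genotype difference among the 7 members with enough counts to be fitted. Its level was 13.8, 55.3, 54.1 and 28.9 CPM in WT 1 to 4 (34, 131, 144 and 68 counts) and 3.01, 4.45, 4.43 and 4.46 CPM in db/db 1 to 4 (10, 14, 10 and 12 counts). All db/db libraries lay below all WT libraries, and the lowest WT library was 3.08 times the highest db/db library. The means were 38 ± 20.2 CPM in WT and 4.09 ± 0.721 CPM in db/db (SD, n = 4 each), a log2 fold change of −3.22 (SE 0.39), or 9.30-fold lower. The spread was unequal, since the WT libraries covered a 4.02-fold range and the db/db libraries a 1.48-fold range. Of the 9264 genes with enough counts to be fitted, 7 had a lower log2 fold change. Without db/db 1, the library with the most muscle transcript, the value for Irf4 was −3.09.

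**Figure D1:**
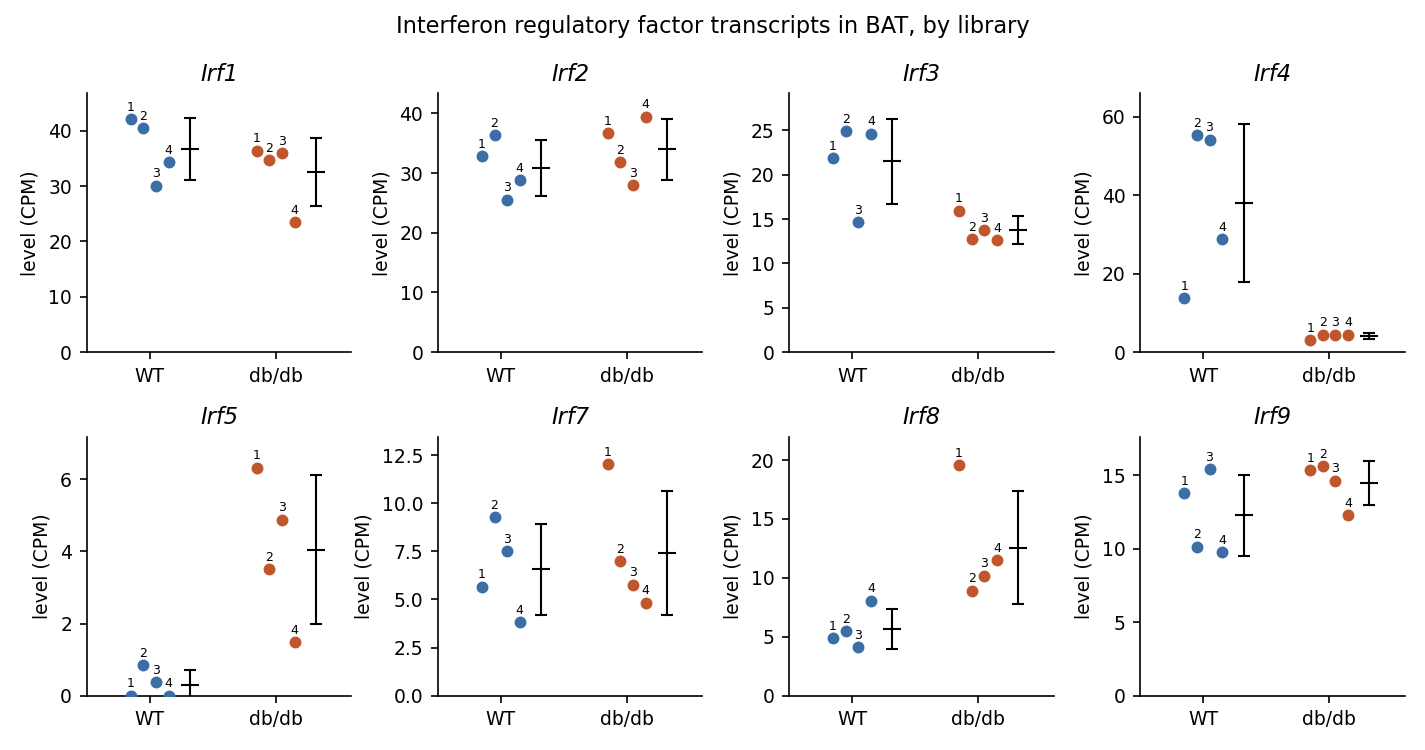
Level of each interferon regulatory factor in BAT (y axis, CPM, linear from 0, with a scale of its own in each panel) in the 4 WT and 4 db/db libraries, with points numbered by replicate and bars giving the mean ± SD (n = 4). For Irf4, Irf5 and Irf8 no db/db point overlaps a WT point, and the lower end of the WT bar of Irf5 is cut at 0.

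Irf4 also took a smaller part of the family's reads. It made up 10.2%, 30.3%, 35.6% and 20.9% of the counts of all 8 members in WT 1 to 4, with a 95% Wilson interval of 7.40% to 13.9% for the lowest of them. In db/db 1 to 4 the share was 2.07%, 3.75%, 3.77% and 4.05%, with an interval of 2.33% to 6.95% for the highest. The intervals cover counting error only. The family was chosen by setting Irf4 against its other members, so these shares restate that choice and support nothing further.

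Irf8 (chr8:120736358-120756694, plus strand), the myeloid member, lay in the other direction. It had 4.86, 5.49, 4.13 and 8.07 CPM in WT 1 to 4 and 19.6, 8.91, 10.2 and 11.5 CPM in db/db 1 to 4. Every db/db library exceeded every WT library, by a small margin between WT 4 and db/db 2, and db/db 1 was the highest. The means were 5.64 ± 1.71 and 12.6 ± 4.79 CPM (SD, n = 4 each), with a log2 fold change of 1.17 (SE 0.33). Without db/db 1 the log2 fold change was 0.85 and Irf8 was no longer called at the adjusted p of 0.05 that was applied to all genes in edgeR.

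Irf5 (chr6:29526625-29541871, plus strand), which acts below Toll-like receptors in myeloid cells, was close to the detection floor in WT. It had 0, 2, 1 and 0 counts in WT 1 to 4 and 21, 11, 11 and 4 counts in db/db 1 to 4, too few for the filter on low counts. The groups did not overlap. The pooled counts of 47 against 3 correspond to a depth-adjusted ratio of 13.5, with an exact 95% counting interval of 4.36 to 68.0. The exons of Irf5 share 411 bases with Tnpo3 on the opposite strand. Whether counting used strand is not stated, so its counts are uncertain by that much.

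Irf3 (chr7:44997648-45002848, plus strand), the latent factor activated below sensors of foreign nucleic acid, was lower on average in db/db. It had 21.9, 24.9, 14.7 and 24.6 CPM in WT 1 to 4 and 15.9, 12.7, 13.7 and 12.7 CPM in db/db 1 to 4. The groups overlapped through WT 3, which lay below db/db 1. The means were 21.5 ± 4.77 and 13.8 ± 1.54 CPM (SD, n = 4 each), with a log2 fold change of −0.64 (SE 0.23). Its call was lost with DESeq2, with limma-voom, with a filter of 10 counts in every sample and with the replicate block, and among the omissions of 1 library it was kept only without WT 3 or without db/db 1. Irf3 exons share 88 bases with Bcl2l12 on the opposite strand.

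The remaining members had overlapping groups. Irf7 (chr7:141262706-141266481, minus strand), the amplifier of type I interferon, had 5.67, 9.29, 7.52 and 3.82 CPM in WT 1 to 4 and 12.0, 6.999, 5.76 and 4.84 CPM in db/db 1 to 4. Its log2 fold change was 0.19 (SE 0.37), and its sign turned without db/db 1 (−0.16). Irf9 (chr14:55603571-55610030, plus strand), the DNA-binding subunit of ISGF3, had 9.76 to 15.4 CPM in WT and 12.3 to 15.6 CPM in db/db, with a log2 fold change of 0.23 (SE 0.24). It shares 123 exonic bases with Rnf31 on the same strand, and Irf7 shares 45 with Phrf1 on the opposite strand.

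Irf1 and Irf2, which compete for the same elements, differed little between the genotypes. Irf1 (chr11:53770014-53778374, plus strand) had 42.1, 40.5, 30.1 and 34.4 CPM in WT 1 to 4 and 36.4, 34.7, 35.9 and 23.4 CPM in db/db 1 to 4, with a log2 fold change of −0.17 (SE 0.19). Irf2 (chr8:46739732-46847458, plus strand) had 25.6 to 36.3 CPM in WT and 27.9 to 39.4 CPM in db/db, with a log2 fold change of 0.14 (SE 0.18). Both differences were smaller than their standard errors. These are the members whose promoters, printed above, hold a GAS, together with Irf8. Irf1 shares 135 exonic bases with Gm17334 on the opposite strand.

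Of the 8 members, 7 had enough counts to be fitted, and 3 passed an adjusted p of 0.05 in edgeR (Irf8 higher, Irf3 and Irf4 lower), beside 27.7% of all 9264 genes tested, 15.8% called higher and 11.9% called lower. The groups did not overlap for 2 of the 7 fitted members (Irf4 and Irf8), beside 28.1% of the genes tested, nor for Irf5, which was not fitted. Since the same contrast chose the members, nothing is read from these counts. The median log2 fold change of the 7 fitted members was 0.14, and that of all genes tested was 0.01.

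Ordered from the lowest log2 fold change, the members ran Irf4, Irf3, Irf1, Irf2, Irf7, Irf9 and Irf8. The gap between Irf4 and Irf3 was 2.58 and that between Irf9 and Irf8 was 0.93, while the other neighbours lay 0.04 to 0.47 apart. The family was chosen by setting Irf4 against its other members, so the gaps around Irf4 restate that choice and carry no test. The log2 fold change of Irf4 minus that of the other member was −2.58 for Irf3, −4.38 for Irf8 (20.9-fold) and between −3.45 and −3.05 for Irf1, Irf2, Irf7 and Irf9.

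**Figure D2:**
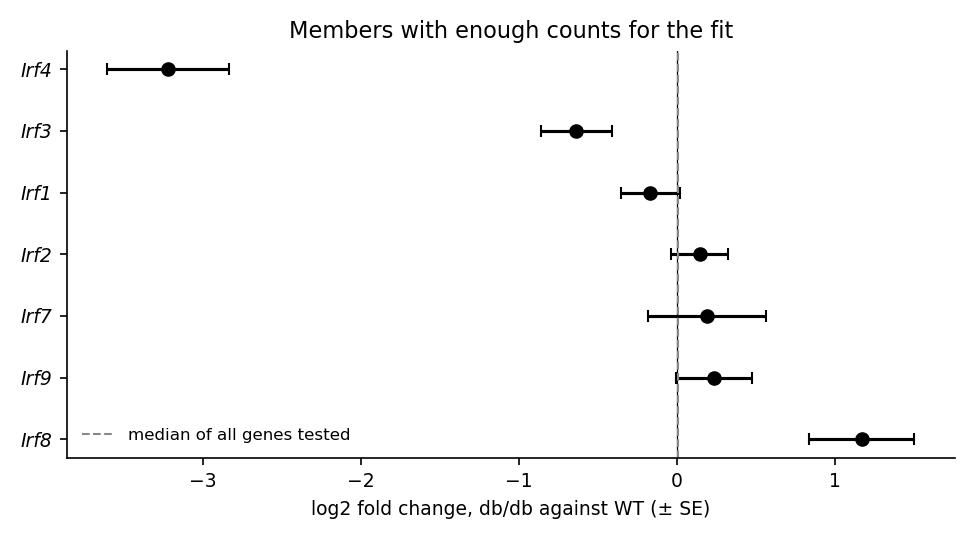
Log2 fold change of db/db against WT (x axis, points with SE bars from edgeR, n = 4 libraries per genotype) for the 7 members with enough counts, ordered from lowest to highest. Irf4 lies at −3.22, the difference for which the family was chosen, and Irf3 at −0.64. Irf1, Irf2, Irf7 and Irf9 lie between −0.17 and 0.23, around the dashed median of all genes tested at 0.01.

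Cell types that could carry these transcripts also differed between the genotypes. Brown adipocyte markers summed to 8925.9 to 10641.3 CPM in WT and 3707.8 to 6799.4 CPM in db/db, and 5 of the 5 tested of 7 fell, Cidea and Ucp1 among them. General adipocyte markers summed to 8860.8 to 15740.7 CPM in WT and 14522.8 to 19502.2 CPM in db/db, with 2 of 6 higher. Fabp4 was among them (log2 fold change 0.65, edgeR adjusted p = 0.0309) but lost its call without WT 1, WT 2, WT 4, db/db 2 or db/db 3, and Adipoq, the adiponectin gene, did not pass (0.32, adjusted p = 0.112). Plin1 was the other one called (0.79, edgeR adjusted p = 6.85e-04), while Pparg (−0.39, adjusted p = 0.3405) and Cidec (−0.17, adjusted p = 0.5225) did not pass. Plin1, Pparg and Cidec are named after their values were seen. Macrophage markers summed to 188.2 to 241.6 CPM in WT and 759.1 to 1332.4 CPM in db/db, and 9 of 11 tested rose. The lysozyme gene Lyz2 rose by 2.79 (SE 0.20, adjusted p = 3.02e-08) and the complement gene C1qa by 2.07 (SE 0.21, adjusted p = 1.39e-06) on the log2 scale. The tested markers that did not pass had negative values, −1.03 for Cd14 (adjusted p = 0.0997) and −0.48 for Mertk (adjusted p = 0.0816), and are named here after their values were seen.

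Lymphoid markers were sparse. B cell and plasma cell markers summed to 4.25 to 12.2 CPM in WT and 16.4 to 83.6 CPM in db/db, where Cd79a was at 0 in all libraries and Ighm, the IgM heavy chain, rose (log2 fold change 3.20, SE 0.39, adjusted p = 1.25e-05). The light chain gene Igkc had 23 counts in WT and 85 in db/db and was not tested. T cell markers summed to 0.425 to 7.18 CPM in WT and 1.27 to 9.33 CPM in db/db, where Cd3d had 9 and 19 counts and Cd3e 8 and 8 counts over the 4 libraries of each genotype. Dendritic cell markers summed to 21.8 to 31.6 CPM in WT and 25.0 to 28.3 CPM in db/db. Most of this was Zbtb46, on average 26.5 of 27.3 CPM in WT and 19.05 of 27.1 CPM in db/db. It did not pass (log2 fold change −0.47, adjusted p = 0.0927, and 0.0467 without db/db 2). Flt3 and Clec9a had 2 counts each in WT and 0 in db/db, and Xcr1 and Siglech 0 in WT and 8 and 7 in db/db. The list therefore says little about dendritic cells. Itgax, which macrophages also express, had 0, 4, 0 and 0 counts in WT 1 to 4 and 24, 13, 17 and 21 counts in db/db 1 to 4 (adjusted p = 5.06e-04). Its fold change is not given, since all its WT counts lay in WT 2, and it passed the filter on low counts only through db/db libraries. It was too low to be tested without db/db 1 or db/db 4.

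Stromal and vascular lists moved as well. Fibroblast markers summed to 119.9 to 152.6 CPM in WT and 301.0 to 690.4 CPM in db/db, with 4 of 4 higher, among them the collagen gene Col1a1 (log2 fold change 1.47, adjusted p = 8.72e-05) and Dpt (2.45, adjusted p = 2.35e-07). Endothelial markers summed to 220.7 to 291.4 CPM and 162.3 to 193.1 CPM, with 2 of 4 lower, Kdr among them (−0.74, adjusted p = 0.00127) and Pecam1 not (−0.31, adjusted p = 0.202). The 8 muscle markers all rose, among them the actin gene Acta1 and the troponin gene Tnnc2 (both 3.05, adjusted p = 6.79e-05 and 7.36e-05), and Tnnc2 shares exonic bases with Ube2c. Without db/db 1 their log2 fold changes were 2.40 and 2.38.

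Irf4 differed by more than the adipocyte lists did. The log2 fold change of Irf4 minus the median of the brown adipocyte markers tested (−0.65) was −2.56, and minus that of the general adipocyte markers (0.18) it was −3.39. Per 1000 CPM of brown adipocyte markers, Irf4 was 1.45, 5.91, 6.06 and 2.71 CPM in WT 1 to 4 and 0.811, 0.809, 0.872 and 0.657 CPM in db/db 1 to 4. Per 1000 CPM of general adipocyte markers it was 1.55, 5.50, 3.44 and 2.43 CPM in WT and 0.197, 0.228, 0.253 and 0.307 CPM in db/db. On both scales the groups did not overlap, also when the gene with the highest mean was left out of each list (Cidea, then 2.81 to 11.1 CPM in WT and 1.01 to 1.41 CPM in db/db, and Fabp4, then 3.63 to 17.1 CPM and 0.623 to 1.02 CPM). The part of other cell types in these levels was not tested.

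The log2 fold change of Irf8 minus the median of 2.17 over the 11 macrophage markers tested was −1.01. It was smaller than that of each of the 9 markers that rose and larger than those of Cd14 and Mertk. Per 1000 CPM of macrophage markers, Irf8 was 20.1, 29.2, 17.4 and 38.6 CPM in WT 1 to 4 and 14.7, 11.7, 13.3 and 10.2 CPM in db/db 1 to 4, with the db/db values below the WT values. This lack of overlap rested on Lyz2, which made up 28.1% to 53.9% of the sum. Without Lyz2, Irf8 was 24.4 to 63.1 CPM per 1000 in WT and 22.1 to 28.2 CPM in db/db, and the groups overlapped. Irf5 was 0, 4.48, 1.59 and 0 CPM per 1000 in WT 1 to 4 and 4.74, 4.61, 6.36 and 1.32 CPM in db/db 1 to 4, where the groups overlapped.

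**Figure D3:**
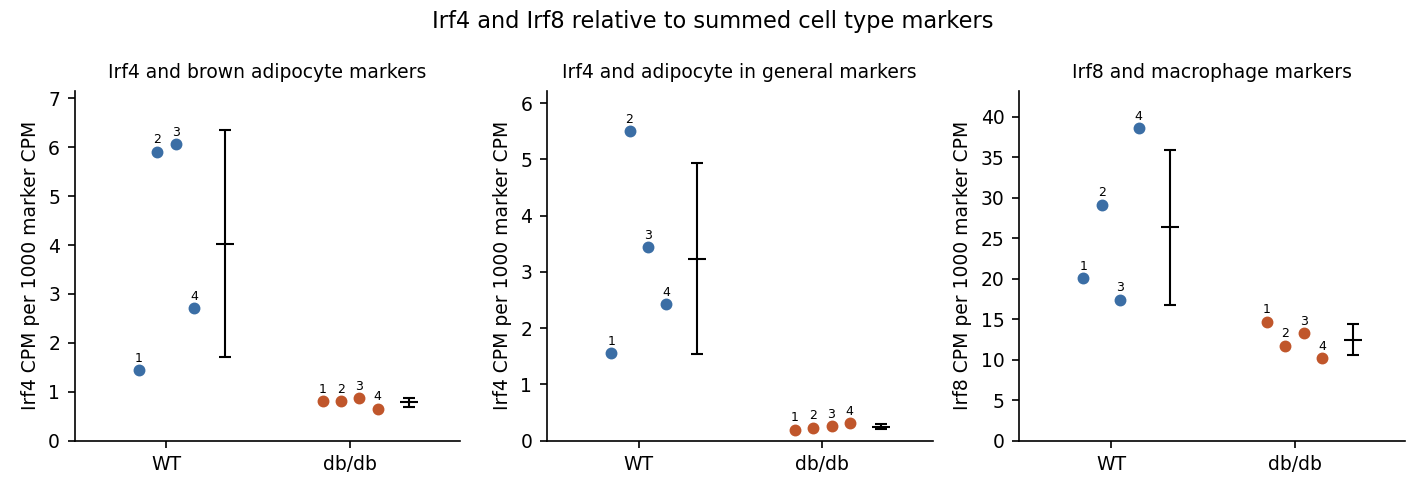
Irf4 per 1000 CPM of brown adipocyte markers, Irf4 per 1000 CPM of general adipocyte markers and Irf8 per 1000 CPM of macrophage markers (y axes, linear from 0) in each numbered library, with mean ± SD (n = 4). Irf4 averages 4.03 in WT and 0.787 in db/db per 1000 brown adipocyte marker CPM. Irf8 averages 26.3 and 12.5 per 1000 macrophage marker CPM, and its groups overlap when the marker Lyz2 is left out.

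The genes around the family were read from 6 lists, and each gene was tested with edgeR over all genes. Genes tied to Irf4 in fat comprise its co-activator, thermogenic and lipolytic genes and a myokine, and of 7 tested of 10, 3 fell and none rose, with a median log2 fold change of −0.18. Ppargc1a, which encodes the co-activator PGC-1alpha, had 25.1, 24.1, 19.9 and 36.9 CPM in WT 1 to 4 and 14.1, 19.4, 14.6 and 12.7 CPM in db/db 1 to 4, without overlap. Its log2 fold change was −0.79 ± 0.23 (SE), with an adjusted p of 0.0158 in edgeR. Cidea, the lipid droplet gene of brown fat, fell by 1.24 (SE 0.17, adjusted p = 4.19e-05), from 4356.2 ± 409.8 to 1838.6 ± 464.0 CPM (SD, n = 4 each).

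Ucp1 fell too (log2 fold change −0.65 ± 0.19 SE, adjusted p = 0.0176 in edgeR), from 2247.5 ± 387.2 to 1428.7 ± 457.1 CPM (SD, n = 4 each), with db/db 4 at 2027.4 CPM inside the WT range. Without WT 4 the list held 1 call, since Ppargc1a and Ucp1 lost theirs (adjusted p = 0.0732 and 0.0707), and Ucp1 also lost its call without db/db 3 (adjusted p = 0.0612). The lipase genes Pnpla2, which encodes ATGL, and Lipe, which encodes hormone-sensitive lipase, did not pass (log2 fold change −0.18, adjusted p = 0.447, and 0.04, adjusted p = 0.868). Lipe shares exonic bases with 4732471J01Rik and is uncertain by that much. Mstn, the myokine gene known to be repressed by Irf4 in brown fat, had 2 counts in db/db 2 and 0 in the other libraries.

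Among 13 partner genes, 1 of 7 tested rose and none fell, with a median log2 fold change of 0.09. The gene that rose was Spi1, which encodes PU.1, the myeloid partner of Irf4 and Irf8. It had 7.28, 1.27, 4.89 and 2.55 CPM in WT 1 to 4 and 29.2, 12.1, 15.1 and 18.2 CPM in db/db 1 to 4, a log2 fold change of 2.20 (SE 0.40, edgeR adjusted p = 4.91e-04). All db/db libraries lay above all WT libraries. With 18, 3, 13 and 6 counts in WT 1 to 4, Spi1 passed the filter on low counts with the help of its db/db libraries. The median over the macrophage markers was 2.17.

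Of 15 genes for interferons, their receptors and the JAK-STAT kinases and factors, 11 were tested, 1 rose and none fell, with a median log2 fold change of 0.02. The ligand genes Ifnb1, Ifng and Ifnk and the receptor gene Ifnlr1 had 0 counts in all 8 libraries, so expression below the floor was not detectable at this depth. Ifngr1, a receptor chain for interferon gamma, rose from 123.0 ± 14.8 to 172.8 ± 30.3 CPM (SD, n = 4 each), with an adjusted p of 0.0190 in edgeR (log2 fold change 0.49, SE 0.15). Its call was lost without WT 1, without WT 3 and without db/db 3, and the number called in the list ran from 0 without WT 3 to 3 without db/db 4. Stat2, another subunit of ISGF3, had 3.76 to 8.90 CPM in WT and 2.55 to 10.8 CPM in db/db (log2 fold change 0.01, SE 0.43, adjusted p = 0.989), and the sign of this near-zero value turned with the scaling and with single libraries.

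Of 23 sensors, adaptors and kinases upstream of Irf3, Irf5 and Irf7, 15 were tested, 3 rose and none fell, with a median log2 fold change of 0.20. Traf3, an adaptor that leads to Irf3 and Irf7, had 3.24, 4.64, 1.13 and 3.82 CPM in WT 1 to 4 and 9.33, 10.5, 8.42 and 6.70 CPM in db/db 1 to 4 (log2 fold change 1.45, SE 0.40, edgeR adjusted p = 0.0105). Tlr3, the receptor for double-stranded RNA, rose by 1.35 (SE 0.41, adjusted p = 0.0195), and Irak4, a kinase below Toll-like receptors, by 1.01 (SE 0.31, adjusted p = 0.0221). None of these 3 overlapped between the genotypes, but their means were at most 10.6 CPM, and the exons of Tlr3 and Irak4 overlap Gm45542 and Twf1. In WT 1 to 4, Tlr3 had 4, 8, 5 and 8 counts and Traf3 8, 11, 3 and 9 counts. Both passed the filter on low counts through their db/db libraries, so the direction of their calls was partly set by the filter. Tlr3 lost its call without WT 1, WT 3 or db/db 2, and Irak4 without WT 1, WT 2, WT 4 or db/db 1.

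The interferon-stimulated genes that ISGF3 induces were counted from a list of 30, of which 29 were in the table and 16 were tested. Of these, 3 rose and 1 fell, with a median log2 fold change of 0.62 beside 0.01 for all genes, and 12 of the 16 had positive values. Ifitm3, an antiviral membrane protein, had 66.8, 75.6, 71.8 and 62.4 CPM in WT 1 to 4 and 173.6, 103.1, 109.9 and 113.5 CPM in db/db 1 to 4, without overlap. It rose by 0.86 (SE 0.17, edgeR adjusted p = 8.25e-04) and remained called without each single library. Dtx3l, a ubiquitin ligase, rose by 0.84 (SE 0.26, adjusted p = 0.0220), and Samhd1, a nucleotide hydrolase, by 0.64 (SE 0.22, adjusted p = 0.0399).

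Ifi27 fell (log2 fold change −0.40 ± 0.14 SE, adjusted p = 0.0388 in edgeR), from 1150.8 ± 125.3 to 869.9 ± 124.9 CPM (SD, n = 4 each). Dtx3l shares exonic bases with Parp9, also in the list. Without single libraries the number called in this list ran from 1 to 4. It was 1 without WT 2, without WT 4 or without db/db 1, and Dtx3l, Samhd1 and Ifi27 were each lost in 5 or 6 of the 8 omissions. Macrophage markers rose in the same db/db libraries (sums of 759.1 to 1332.4 CPM), and their part in these values was not tested.

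Of 23 genes induced by interferon gamma through Irf1, 13 were tested, 1 rose and none fell, with a median log2 fold change of 0.04. The gene that rose was B2m, the invariant chain of MHC class I, with 1429.7, 1142.0, 1408.4 and 1195.3 CPM in WT 1 to 4 and 2246.9, 1850.9, 1543.0 and 1551.2 CPM in db/db 1 to 4 (log2 fold change 0.47 ± 0.15 SE, adjusted p = 0.0243 in edgeR). These groups did not overlap, but the call was lost without WT 2, WT 4, db/db 1 or db/db 2. The list held 0 calls without WT 4 or db/db 2 and 2 without WT 3 or db/db 1. Against 27.7% of all genes, the shares called were 42.9% of the fat genes, 14.3% of the partners, 9.09% of the interferon and JAK-STAT genes, 3 of the 15 tested sensors, 25.0% of the ISGF3 targets and 7.69% of the interferon gamma targets.

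**Figure D4:**
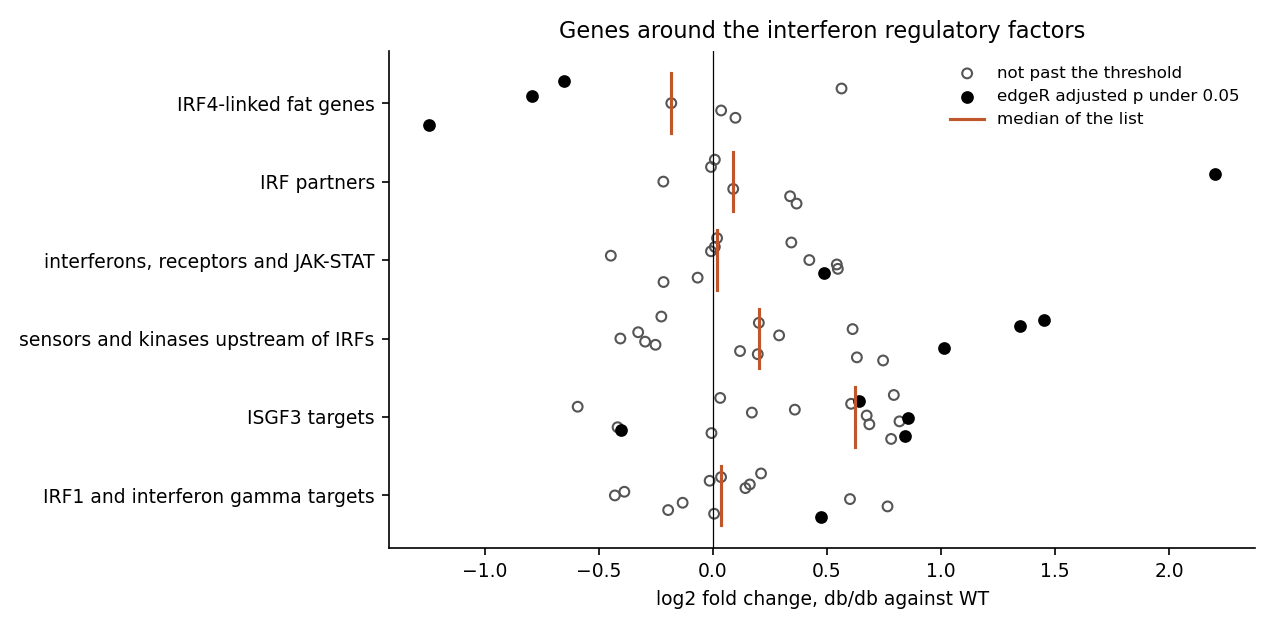
Log2 fold change of db/db against WT (x axis) for each tested gene of the 6 lists around the IRFs (rows), with filled points for edgeR adjusted p under 0.05 over all genes and bars for the list medians. The ISGF3 targets have a median of 0.62, while the other medians lie between −0.18 and 0.20.

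Within the genotypes, no other fitted member followed Irf4 closely. Over deviations of log2 CPM from the genotype means in the 8 libraries, Pearson's r with Irf4 was −0.38 for Irf1, −0.18 for Irf2, −0.36 for Irf3, 0.24 for Irf7, −0.28 for Irf8 and −0.15 for Irf9. These are descriptions over 8 points, and the genes of a library share its depth. Irf4 covered a 4.02-fold range in WT and a 1.48-fold range in db/db, so r rested mostly on the WT libraries. The highest values of r among many genes over so few libraries are large by chance alone. The genes most like Irf4 by this measure, among those with a mean of at least 20 CPM, were Dcun1d5 (0.97), Rpl24 (0.97), Ranbp9 (0.96), Skap2 (0.95) and Sec61b (0.95). Of them, Ranbp9, which encodes a Ran-binding scaffold protein, was also lower in db/db, with 19.4, 36.3, 34.2 and 27.6 CPM in WT 1 to 4 and 11.1, 13.7, 11.5 and 11.9 CPM in db/db 1 to 4 (log2 fold change −1.28, SE 0.23, edgeR adjusted p = 3.85e-04). Skap2 and Sec61b were higher in db/db (0.62, adjusted p = 0.00826, and 0.76, adjusted p = 0.00846), and Dcun1d5 and Rpl24 did not pass (−0.33, adjusted p = 0.297, and −0.05, adjusted p = 0.867).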

How the data were processed

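Libraries of BAT from 4 WT and 4 db/db mice were sequenced single-end through a commercial mRNA-seq service. Per the study's methods, the authors trimmed reads with bbduk, aligned them to mm10 with STAR, counted them per gene with HTSeq-count and deposited raw counts, whereas the submitters' processing notes name Trimmomatic, HISAT2 and DESeq2, so the aligner is uncertain. The use of strand or molecular identifiers is not given in the sources used here, so PCR copies may be included. The deposited log2 values equalled log2 of 1 plus the raw count multiplied by a factor per sample, and served only as an alternative for the members. The sample sheet was not used.

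Of 31053 Ensembl identifiers, 31011 were matched to symbols in GENCODE M21, while the other 42 took 0.00213% or less of any library's counts. Promoter sequences were those of RefSeq on GRCm38.p6. Genes were filtered by filterByExpr (minimum count 10, minimum total 15), scaled by TMM and fitted by quasi-likelihood in edgeR (version 4.0.16, R 4.3.3) on genotype alone, with Benjamini-Hochberg adjustment over 9264 genes at 0.05. CPM values are counts over the TMM-scaled total of the filtered genes. The standard errors were taken from its F statistic. P-values set the genotype difference against the spread between these libraries. No p-value is given for a member, because the contrast chose them, and whether a member passed the call rule is stated as a description only. The members and all lists were chosen with earlier results of these data known. The fit was tested on simulated data.

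Named from each pathway list were up to 3 genes called in each direction with the lowest adjusted p, with Stat2, Ucp1, Ppargc1a, Pnpla2, Lipe and Mstn in every case, the 2 genes of each marker list with the highest mean CPM, and the 5 genes most like Irf4. Alternatives were DESeq2 1.42.0, limma-voom (limma 3.58.1), other scalings and filters, a replicate block, and omission of every library in turn. Leaving the gene with the highest mean out of a marker list was added after seeing the data. Some results are not reported here.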

Additional observations from a re-analysis of the deposited data

Results flagged for a closer look

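In 8 of 110 sets of 4 libraries examined, 1 library lay far from the others of its genotype by Dixon's criterion at 95%, where chance gives about 1 in 20, or 5.5 sets. Irf1 was 23.4 CPM in db/db 4 against 34.7 to 36.4 CPM in the other db/db libraries. Irf4 was 3.01 CPM in db/db 1 against 4.43 to 4.46 CPM in the others, on 10 counts in db/db 1 and 10 to 14 counts in the others. Ifitm3 was 173.6 CPM in db/db 1 against 103.1 to 113.5 CPM. Mstn was 0.636 CPM, or 2 counts, in db/db 2 against 0 in the others. Cd3d was 3.38 CPM in WT 2 against 0 to 0.405 CPM in the other WT libraries, and 5.42 CPM in db/db 1 against 0 to 0.443 CPM. Itgax was 1.69 CPM in WT 2 against 0 in the other WT libraries, and 4.14 CPM in db/db 2 against 7.22 to 7.81 CPM.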

How the results depend on the processing

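The log2 fold change of Irf4 lay between −3.26 and −2.95 over the alternatives of tool, scaling, filter and block, with the authors' log2 values included, and between −3.51 and −2.99 without single libraries. That of Irf8 lay between 1.05 and 1.22 and between 0.85 and 1.37. Irf7 ran from −0.16 to 0.38 without single libraries, and its sign turned without WT 4 and without db/db 1. Irf5 was fitted only when every gene with at least 1 count was kept (3.50), where it was also called, which made 4 members called instead of 3. Cidea, Ifitm3, Spi1 and Traf3 kept their calls in every alternative that tested them. The genes called in all numbered 2568, against 2018 to 3170 over the alternatives and 2236 to 2483 without single libraries. Keeping every gene with at least 1 count gave 2 called partners and 2 called interferon gamma targets. Requiring 10 counts in every sample gave 0 partners, 3 interferon and JAK-STAT genes and 1 sensor, with fewer genes tested. Without single libraries, calls ran from 1 to 3 fat genes, 0 to 3 interferon and JAK-STAT genes, 1 to 4 ISGF3 targets, 0 to 2 interferon gamma targets and 2 to 4 sensors. Samhd1 lost its call with limma-voom and with library totals only, and Ifi27 with the filter of 10 counts in every sample. The near-zero values changed sign. Stat2 was −0.12 with limma-voom, −0.0004 with RLE, −0.0159 with upper quartile, −0.0221 with library totals, −0.0354 with every gene kept, −0.0695 with the block, and −0.43 to 0.27 without single libraries. Rpl24 was 0.0026 with the filter of 10 counts in every sample and −0.226 to 0.0591 without single libraries. Lipe was −0.0094 with every gene kept and −0.0493 to 0.0733 without single libraries. Replicate numbers 1 to 4 occur in both genotypes but name different mice, and same-numbered libraries did not deviate together (r = 0.04, 0.05, −0.08 and −0.01). With the replicate block 2557 genes were called, 2 of them interferon and JAK-STAT genes. Irf3 lost its call, and no other named gene that was followed through the alternatives changed its call. At totals of 2374079 to 3240074 counts, genes under 0.902 to 1.33 CPM were not detectable, and members with a few counts in a library have wide counting error.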
